A study of Mus musculus with 24 samples.

Results

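Expression of 7 genes that govern the electrical excitability of the muscle fiber membrane was examined in mouse TA muscle: Kcnj2, Kcnj11, Kcna7, Clcn1, Scn4a, Scn4b and Atp1b1. They were taken by name as ion channel and sodium pump genes of the sarcolemma, located by their Ensembl identifiers through GENCODE mouse symbols, and form 7 of the 55487 genes listed for each mouse. A muscle action potential starts when voltage-gated sodium channels open, and it ends as they close and potassium channels open. Chloride and inward rectifier potassium channels hold the membrane near its resting potential between action potentials. The sodium pump moves sodium out of the fiber and potassium back in, and in repeated contraction potassium that builds up outside the fiber lowers its excitability.

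The study asked how photobiomodulation therapy (PBMT), a near-infrared light treatment of the limb, affects gene expression in resting and in exercised muscle. All 24 mice were wild-type C57BL/6J males aged 5 to 7 weeks, in 4 groups of 6. Sedentary PBMT mice received 830 nm light at 25 mW/cm2 for 20 min (30 J/cm2) under anesthesia, and their muscle was taken 24 h later without exercise. Sedentary control mice were shaved and anesthetized for the same 20 min with no light. Fatigued PBMT mice had the same light treatment, ran on a treadmill to exhaustion 24 h later and were dissected at once. Fatigued control mice ran after anesthesia without light. Each mouse ran to its own exhaustion, and the paper reports longer runs after PBMT than in controls. Light and run time therefore cannot be told apart in the PBMT comparison of fatigued muscle. Each library held poly(A) RNA of a separate mouse. By their library names the sedentary and the fatigued libraries form separate sequencing projects, so state and project cannot be told apart in any comparison between them.

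The authors deposited a count for each gene and mouse. Total counts ranged from 43271093 to 46904076 in sedentary controls and from 46327516 to 52775844 in sedentary PBMT mice. In the fatigued project the totals ranged from 56792327 to 68726155 in controls and from 53122528 to 68566029 with PBMT. The unit of expression is CPM, in which counts are scaled by the normalized total of each mouse. Counts of the 7 genes ran from 1077 (Kcnj2) to 34725 (Scn4a) per mouse, so counting error was small beside the spread between mice. All 7 genes passed the filter on low counts in each fit, among 14177 genes in sedentary muscle, 14574 in fatigued muscle and 15108 over the 24 mice.

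A single library stood apart. In sedentary control replicate 4 the mitochondrially encoded genes held 3.24% of the counts, against 13.8% to 17.1% in the other 11 sedentary libraries. In the 12 fatigued libraries this share was 10.5% to 12.9%. The PBMT differences of the 7 genes in sedentary muscle are given with and without that library, and the values of the other genes include it. Skeletal muscle fiber markers were abundant in the libraries: the 10 summed to 117060 ± 14235 CPM (SD, n = 6) in sedentary controls, and Acta1, skeletal muscle actin, was the most abundant of them per kilobase. The fetal acetylcholine receptor subunit Chrng, a mark of denervated fibers, was close to 0, at 0.0286 ± 0.0175 CPM in sedentary controls and 0.0877 ± 0.0829 CPM in fatigued controls (SD, n = 6 each). The other denervated fiber markers were higher, from 2.77 ± 1.23 CPM (Myh3) to 62.1 ± 46.2 CPM (Myh8) in sedentary controls (SD, n = 6 each).

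Compared per kilobase of exon length over the 24 mice, Scn4b was the most abundant of the 7 at 109 ± 11.9 CPM per kb (SD, n = 24). Atp1b1 (62.2 ± 18.7 CPM per kb) and Scn4a (62.1 ± 8.06) came next, with means that were close only over all groups. Atp1b1 was above Scn4a in sedentary controls (74.7 ± 8.89 and 56.4 ± 8.72 CPM per kb) and below it in fatigued PBMT mice (46.6 ± 6.78 and 65.9 ± 7.60 CPM per kb, SD, n = 6 each). The order of this pair thus turned with the group. Kcna7 (37.9 ± 8.11) and Kcnj11 (37.7 ± 3.07) followed over all 24 mice, and their order turned as well, with means of 43.2 and 37.3 CPM per kb in sedentary controls and 30.9 and 37.1 CPM per kb in fatigued PBMT mice. Clcn1 was next to last (27.8 ± 2.80 CPM per kb). Kcnj2 was the lowest at 6.33 ± 2.24 CPM per kb. The order thus ran from the sodium channel and pump subunits to the inward rectifier, whose transcript was present at a small part of the level of the others.

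Kcnj2 encodes a strong inward rectifier potassium channel that helps hold the resting potential, and it lies on chromosome 11 of GRCm38 (ENSMUSG00000041695, 111066164 to 111076821, plus strand). In sedentary controls its level ran from 23.15 to 35.7 CPM with a median of 30.9 CPM. In sedentary PBMT mice it ran from 36.1 to 67.9 CPM with a median of 50.3 CPM. Every PBMT mouse lay above every control mouse, although the lowest PBMT mouse (replicate 4) was only just above the highest control (replicate 6). Replicate 1 of the PBMT group was the highest of all 24 mice, and control replicate 4 was the lowest of the sedentary mice. Of all genes tested in sedentary muscle, 30 had every PBMT mouse above every control (0.212%) and 38 had every PBMT mouse below (0.268%).

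The means were 30.5 ± 4.50 CPM in sedentary controls and 50.8 ± 10.4 CPM with PBMT (SD, n = 6 each), a log2 fold change of 0.73 (SE 0.129, 95% interval 0.46 to 1.01), or 1.66-fold. The edgeR p-value was 3.17e-05, the 8th smallest of 14177 genes, and the adjusted p of 0.0562 was just over the threshold of 0.05. An exact permutation test of the 12 mice gave p = 0.00216 (two-sided), the smallest p that 6 mice against 6 allow, and 0.451 after adjustment over all genes tested. With edgeR, 0 of the 7 genes passed in sedentary muscle, where 4 of all genes tested did (0.0282%). These 4 were Ccn1, Egr1, Cited2 and Nfil3, named here after their values were seen. At an unadjusted edgeR p under 0.05, 1 of the 7 genes was counted, Kcnj2, as were 1082 of all genes (7.63%).

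The call on Kcnj2 depended on the tool, on its settings and on single mice. It passed with DESeq2 (adjusted p = 1.72e-04) and with limma voom (adjusted p = 0.0437), and over all alternative settings its adjusted p ran from 1.72e-04 to 0.240, the latter with edgeR on all 24 mice in 1 model. With edgeR it also passed with no filter (adjusted p = 0.0351), with the length or the GC trend removed (0.0386 and 0.0172) and with the replicate number as a block (0.0247). Without sedentary control replicate 4 the log2 fold change was 0.67 (edgeR adjusted p = 0.0760). Without PBMT replicate 4 the edgeR adjusted p was 0.00848, and without PBMT replicate 5 it was 0.0467. Each of the other 10 mice left out gave a higher edgeR adjusted p than all 12 mice did, up to 0.171 without PBMT replicate 1, where the log2 fold change was 0.63. In each setting tried Kcnj2 was higher with PBMT.

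In fatigued muscle Kcnj2 ran from 17.7 to 31.9 CPM in controls (median 25.5) and from 21.3 to 41.5 CPM with PBMT (median 31.5). The groups overlapped: PBMT replicates 4, 5 and 6 lay above every control, while replicates 1, 2 and 3 lay among the controls. Means were 25.2 ± 4.74 and 31.4 ± 8.86 CPM (SD, n = 6 each), with a log2 fold change of 0.32 (SE 0.187, 95% interval -0.083 to 0.73, edgeR adjusted p = 1.00). The unadjusted edgeR p was 0.109. Tested directly, the PBMT effect in fatigued muscle minus that in sedentary muscle was -0.41 on the log2 scale (95% interval -0.90 to 0.084, edgeR adjusted p = 0.946). A difference between the states in the PBMT effect on Kcnj2 was therefore not shown.

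**Figure D1:**
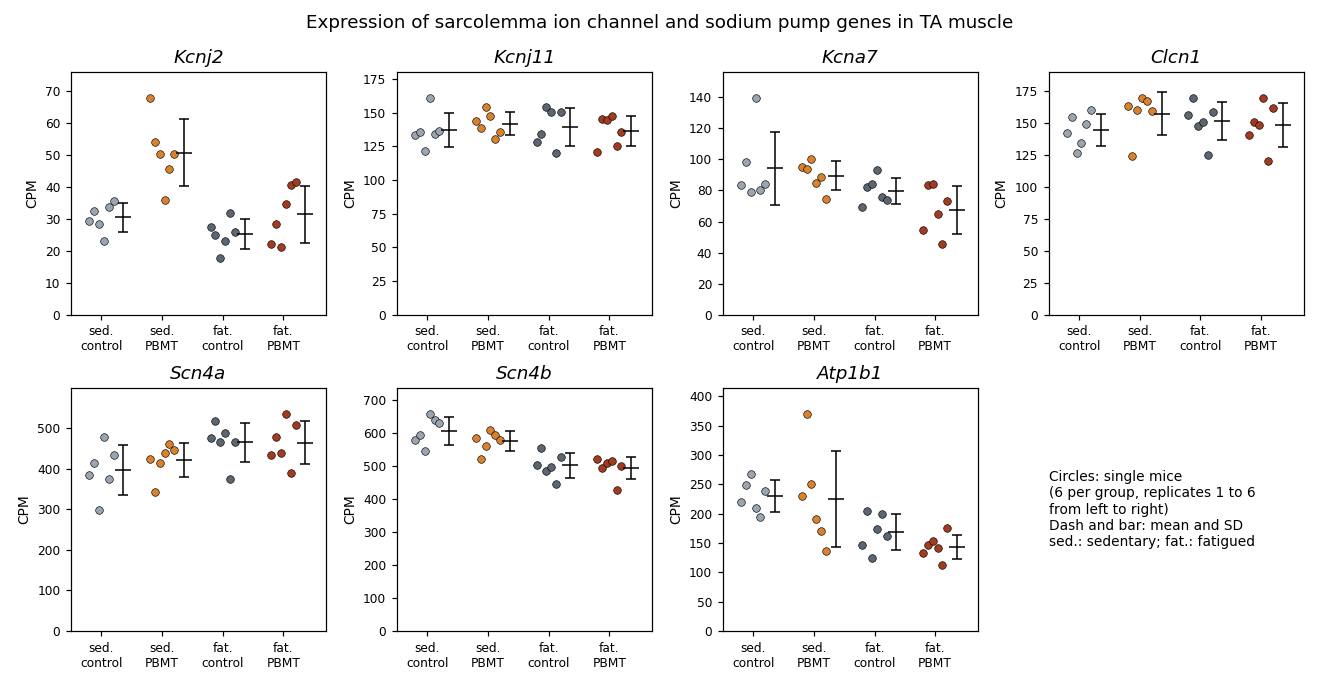
Expression of each of the 7 genes in CPM (vertical axis, from 0) by group (horizontal axis), with a circle for each mouse and a dash and bar for the mean and SD of 6 mice. Kcnj2 lay between 36.1 and 67.9 CPM in sedentary PBMT mice, above all 6 sedentary controls, while the groups of each PBMT comparison overlapped in the other genes.

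Kcnj11 encodes the pore of the ATP-sensitive potassium channel, which opens when ATP in the fiber falls (ENSMUSG00000096146, chromosome 7, 46093953 to 46100764, minus strand). Its level ran from 122 to 161 CPM in sedentary controls and from 130 to 154 CPM with PBMT, with medians of 135 and 141 CPM. The ranges overlapped, and control replicate 4 was the highest mouse of the project. The log2 fold change was 0.050 (95% interval -0.10 to 0.20, edgeR adjusted p = 0.855), and 0.10 without control replicate 4 (edgeR adjusted p = 0.582). It fell to 0.016 without control replicate 3 and to 0.020 without PBMT replicate 3. In fatigued muscle the level ran from 120 to 154 CPM in controls and from 121 to 147 CPM with PBMT, and the log2 fold change was -0.032 (95% interval -0.19 to 0.13, edgeR adjusted p = 1.00). These ranges overlapped as well. The upper ends of the intervals correspond to 1.15-fold in sedentary and 1.09-fold in fatigued muscle.

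Kcna7 encodes a voltage-gated potassium channel subunit of heart and skeletal muscle (ENSMUSG00000038201, chromosome 7, 45405653 to 45409763, plus strand). It ran from 79.3 to 139.5 CPM in sedentary controls (median 83.7) and from 74.4 to 100 CPM with PBMT (median 91.2). Control replicate 4 alone lay above 98.5 CPM among the controls, and it set the sign of the difference. The log2 fold change was -0.072 with it (edgeR adjusted p = 0.881) and 0.072 without it (edgeR adjusted p = 0.770). In fatigued muscle Kcna7 ran from 69.4 to 93.3 CPM in controls and from 45.3 to 83.9 CPM with PBMT. PBMT replicates 1, 4 and 5 lay below every control, and the other 3 lay among the controls. The log2 fold change was -0.24 (SE 0.134, 95% interval -0.53 to 0.048, edgeR adjusted p = 1.00), and it ran from -0.15 without PBMT replicate 5 to -0.31 without PBMT replicate 3.

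Clcn1 encodes the main chloride channel of skeletal muscle, whose loss causes myotonia (ENSMUSG00000029862, chromosome 6, 42286685 to 42315756, plus strand). It ran from 126 to 160.25 CPM in sedentary controls (median 146) and from 125 to 169.6 CPM with PBMT (median 162). PBMT replicates 1, 3, 4 and 5 lay above every control, whereas replicate 2 lay below every control. The log2 fold change was 0.12 (SE 0.0840, 95% interval -0.053 to 0.30, edgeR adjusted p = 0.695), and 0.10 without control replicate 4 (edgeR adjusted p = 0.700). With single mice left out it ran from 0.087 without control replicate 3 to 0.185 without PBMT replicate 2. In fatigued muscle the ranges were 126 to 169.8 CPM in controls and 120.2 to 169.95 CPM with PBMT, nearly the same span, and the log2 fold change was -0.026 (edgeR adjusted p = 1.00).

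Scn4a encodes the pore of the muscle sodium channel that carries the upstroke of the action potential (ENSMUSG00000001027, chromosome 11, 106318592 to 106353288, minus strand), and Scn4b an auxiliary subunit of sodium channels (ENSMUSG00000046480, chromosome 9, 45138395 to 45154152, plus strand). Scn4a ran from 297 to 478 CPM in sedentary controls and from 342 to 462 CPM with PBMT, with a log2 fold change of 0.086 (95% interval -0.13 to 0.31, edgeR adjusted p = 0.826). This small difference depended on single mice, at 0.014 without control replicate 3 (edgeR adjusted p = 0.980) and 0.14 without control replicate 4 (edgeR adjusted p = 0.647). In fatigued muscle it ran from 375 to 517 CPM in controls and from 390.0 to 535 CPM with PBMT, and the log2 fold change was -0.0019 (95% interval -0.19 to 0.18, edgeR adjusted p = 1.00). The groups overlapped in both states. Scn4b was the steadiest of the 7, with a coefficient of variation between 5.27% and 7.55% in the 4 groups. Its means were 607 ± 42.2 CPM in sedentary controls and 574 ± 30.2 CPM with PBMT (SD, n = 6 each), a log2 fold change of -0.079 (95% interval -0.22 to 0.066, edgeR adjusted p = 0.752), and -0.056 without control replicate 4 (edgeR adjusted p = 0.774). All 6 sedentary PBMT mice lay below the control median of 611 CPM, but only 1 of them lay below the lowest control. In fatigued muscle the means were 501 ± 37.8 and 494 ± 34.0 CPM (SD, n = 6 each) and the log2 fold change was -0.020 (edgeR adjusted p = 1.00).

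Atp1b1 encodes a beta subunit of the sodium pump, needed to bring the catalytic subunit to the membrane (ENSMUSG00000026576, chromosome 1, 164437109 to 164458355, minus strand). It ran from 194 to 268 CPM in sedentary controls (median 230) and from 136 to 369 CPM with PBMT (median 210). The PBMT mice spread on both sides of the controls: replicate 2 lay above every control and replicates 4, 5 and 6 below every control. Its coefficient of variation was 11.9% in sedentary controls and 36.4% with PBMT, and the log2 fold change was -0.034 (95% interval -0.42 to 0.35, edgeR adjusted p = 0.970). The sign was not stable. It was -0.060 without control replicate 4 (edgeR adjusted p = 0.947) and -0.23 without PBMT replicate 2 (edgeR adjusted p = 0.480), but lay above 0 without control replicate 3 or PBMT replicate 4, 5 or 6, at 0.013, 0.0051, 0.031 and 0.074 in that order. In fatigued muscle it ran from 125 to 204 CPM in controls and from 112 to 175 CPM with PBMT. Only 1 PBMT mouse lay below every control, and the log2 fold change was -0.23 (SE 0.123, 95% interval -0.49 to 0.032, edgeR adjusted p = 1.00).

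Of the 7 genes, 0 passed with edgeR in fatigued muscle, as did 0 of all 14574 genes tested (0%). At an unadjusted edgeR p under 0.05, 0 of the 7 were counted and 230 of all genes (1.58%), and DESeq2 and limma voom also called 0 of the 7. Among all genes, 1 had every fatigued PBMT mouse above every control (0.00686%) and 3 had every PBMT mouse below (0.0206%), while in each of the 7 the groups overlapped. In the test of the difference between the PBMT effects, 0 of the 7 passed with edgeR or DESeq2, and 1 of 15108 genes did with edgeR (0.00662%), Nfil3, named after its values were seen. At an unadjusted edgeR p under 0.05, 0 of the 7 were counted in that test and 665 of all genes (4.4%), and the smallest was that of Kcnj2 (0.0996).

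**Figure D2:**
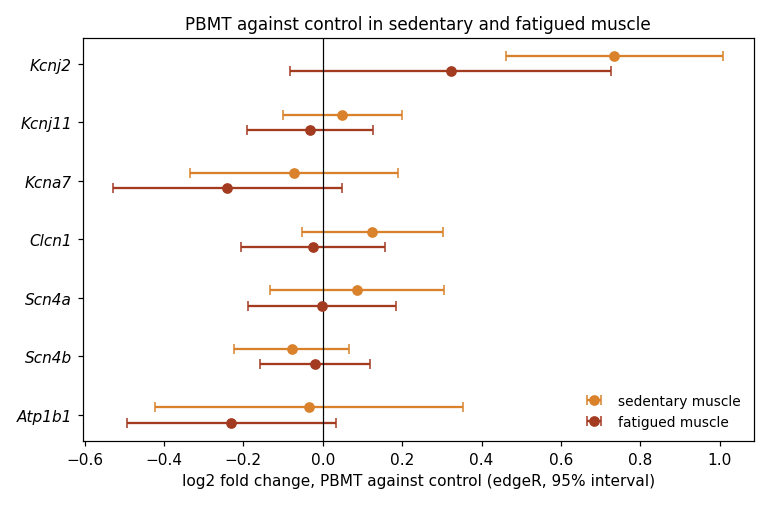
Log2 fold change of PBMT against control for the 7 genes (horizontal axis) in sedentary and fatigued muscle, with points for the edgeR estimate and bars for its 95% interval. The interval of Kcnj2 in sedentary muscle, 0.46 to 1.01, lay above 0, and the other 13 intervals included 0.

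The wider set of excitability genes held 71 further genes in 5 lists, of which 59 were tested in sedentary and 61 in fatigued muscle. In sedentary muscle 36 of the 59 had a log2 fold change above 0 and 23 below, with a median of 0.046 against -0.0019 over all genes. In fatigued muscle 30 lay above 0 and 31 below, with a median of -0.0019 against 0.0041 over all genes. None of them passed with edgeR, DESeq2 or limma voom in either state. At an unadjusted edgeR p under 0.05 there were 3 higher and 2 lower in sedentary muscle, and 0 in fatigued muscle. The 5 of 59 (8.47%) lay near the 7.63% of all genes and are not a result about these lists. Tested for the difference of the PBMT effects, 0 of 62 passed with edgeR or DESeq2, and 2 had an unadjusted edgeR p under 0.05: Kcnj8, at -0.38 on the log2 scale, and Clcn2, at -0.81. That is 3.23% of the 62, against 4.4% of all genes.

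Among 24 potassium channel genes tested in sedentary muscle, 15 lay above 0 and 9 below, and in fatigued muscle 8 above and 16 below. Kcnj8, the pore of the vascular ATP-sensitive channel, was 17.0 ± 1.94 CPM in controls and 21.8 ± 4.50 CPM with PBMT (SD, n = 6 each), a log2 fold change of 0.36 (edgeR adjusted p = 0.493). In fatigued muscle its log2 fold change was -0.020. Abcc9, the regulatory subunit that pairs with Kcnj8 in vessels and is also found in muscle, was 216 ± 41.0 CPM and 252 ± 28.1 CPM in sedentary controls and PBMT mice, with a log2 fold change of 0.22 (edgeR adjusted p = 0.665). Abcc8, the other regulatory subunit of such channels, was low at 0.277 CPM per kb over the 24 mice, against 28.6 CPM per kb for Abcc9. Kcnj12, an inward rectifier related to Kcnj2, was 44.5 ± 5.64 CPM in sedentary controls and 40.6 ± 4.17 CPM with PBMT, with a log2 fold change of -0.13 (edgeR adjusted p = 0.699). Per kilobase Kcnj12 stood at 15.3 CPM, above the 6.33 CPM of Kcnj2. Kcna5, a voltage-gated channel gene, was 17.5 ± 1.47 and 14.8 ± 3.24 CPM (log2 fold change -0.25, edgeR adjusted p = 0.648). Kcnc4 was the most abundant potassium channel gene of the list at 43.4 CPM per kb, and its log2 fold changes were -0.016 in sedentary and -0.0081 in fatigued muscle.

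In the sodium channel list, 4 of 6 genes tested in sedentary muscle lay above 0 and 2 below, and in fatigued muscle 5 of 7 above. Of 10 chloride channel and cotransporter genes, 7 lay above 0 in sedentary and 4 in fatigued muscle. Clcn2 was 0.879 ± 0.105 CPM in sedentary controls and 1.17 ± 0.259 CPM with PBMT (log2 fold change 0.41, edgeR adjusted p = 0.648). In fatigued muscle Clcn2 was 1.37 ± 0.463 and 1.04 ± 0.306 CPM, within the spread of the mice (log2 fold change -0.40, edgeR adjusted p = 1.00). Slc12a2, a sodium, potassium and chloride cotransporter gene, was the most abundant of that list at 11.3 CPM per kb (log2 fold change 0.27 in sedentary muscle, edgeR adjusted p = 0.677).

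Among 12 sodium pump genes tested in sedentary muscle, 5 lay above 0 and 7 below, and of 13 in fatigued muscle 7 above and 6 below. The other beta subunits, Atp1b2 (65.7 CPM per kb), Atp1b3 (13.7) and Atp1b4 (0.603), had log2 fold changes of 0.12, -0.058 and 0.21 in sedentary muscle. Fxyd1, or phospholemman, a regulator of the pump in muscle, stood at 86.6 CPM per kb with a log2 fold change of -0.0025 in sedentary and 0.044 in fatigued muscle. Fxyd6, another member of that regulator family, was 44.8 ± 4.80 CPM in sedentary controls and 36.02 ± 6.96 CPM with PBMT (log2 fold change -0.31, edgeR adjusted p = 0.512). Of the 7 anchors and regulators, 5 lay above 0 in sedentary and 6 in fatigued muscle. Wnk1, a kinase that regulates chloride cotransport, was 236 ± 42.2 and 277 ± 26.4 CPM (log2 fold change 0.24, edgeR adjusted p = 0.648).

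RNA was taken from whole muscle, so fewer cells of a type and less RNA per cell cannot be told apart. Of 9 marker lists, 0 had a gene that passed with edgeR, DESeq2 or limma voom in either PBMT comparison. At an unadjusted edgeR p under 0.05, 2 of 5 endothelial markers (Kdr and Tek) were higher and 1 of 4 macrophage markers (Csf1r) was lower with PBMT in sedentary muscle, and 0 in fatigued muscle. Of all genes 7.63% had such a p in sedentary muscle and 1.58% in fatigued muscle. These 3 were named after their values were seen. The endothelial list went both ways, with 3 of its 5 genes above 0 and 2 below. Each list below is given with the gene that was most abundant per kilobase. The macrophage list, led by Cd68, summed to 15.0 to 40.5 CPM in sedentary controls (median 23.5) and 12.7 to 22.3 CPM with PBMT (median 16.7), with all 4 genes below 0. The ranges overlapped between the groups.

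The endothelial list, led by Cdh5, summed to 273 ± 18.4 CPM in sedentary controls and 285 ± 57.9 CPM with PBMT, and the smooth muscle and pericyte list, led by Rgs5, to 590 ± 76.9 and 591 ± 93.9 CPM (SD, n = 6 each). Rgs5 alone was at 462 CPM in sedentary controls. Of the 5 smooth muscle and pericyte genes, 4 had a PBMT log2 fold change below 0 and 1 above in sedentary muscle. In fatigued muscle all 5 lay below 0. The erythrocyte list, led by Hbb-bs, summed to 101 ± 30.6 and 98.4 ± 29.7 CPM, and the adipocyte list, led by Adipoq, to 7.52 ± 1.66 and 7.98 ± 5.26 CPM. The denervated fiber list, led by Myh8, ran from 57.2 to 179 CPM in sedentary controls (median 66.5) and from 57.8 to 82.0 CPM with PBMT (median 75.7). Control replicate 4, with Myh8 at 156 CPM, set the upper end, so that the mean was higher in controls and the median higher with PBMT. The keratinocyte list, led by Krt10, ran from 1.67 to 5.24 CPM in sedentary controls and from 1.61 to 25.5 CPM with PBMT. The mouse at 25.5 CPM was PBMT replicate 4, which had the lowest Kcnj2 of its group. Krt1 was at 0 in all 6 fatigued PBMT mice and reached 4.52 CPM in sedentary PBMT replicate 4. The part of any of these in the Kcnj2 difference was not tested.

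Levels in fatigued mice were also compared with those in sedentary mice, in a fit to all 24. In controls 1 of the 7 genes passed with edgeR, Scn4b, which was lower in fatigued controls by -0.29 on the log2 scale (SE 0.0641, adjusted p = 0.00260). Of all genes tested 2809 passed (18.6%), 1434 of them lower in fatigued mice (9.49%), so 1 of 7 lay near the share of all genes and is not a result about these 7. Scn4b ran from 545 to 656 CPM in sedentary controls and from 444 to 555 CPM in fatigued controls, and 5 of the 6 fatigued mice lay below every sedentary one. Atp1b1 was also lower, from 230 ± 27.4 to 169 ± 30.7 CPM (SD, n = 6 each), a log2 fold change of -0.46 that missed the threshold with edgeR (adjusted p = 0.0583) and passed with DESeq2 (adjusted p = 0.0341). Atp1b1 also passed with edgeR when fatigued control replicate 2 or 5 or sedentary PBMT replicate 2 or 6 was left out, with adjusted p-values of 0.0479, 0.0486, 0.0173 and 0.0398 in that order. Scn4a was higher in fatigued controls by 0.21 (edgeR adjusted p = 0.135), and by 0.28 without sedentary control replicate 4 (edgeR adjusted p = 0.0397). Without that mouse the values were -0.26 for Scn4b (edgeR adjusted p = 0.00309) and -0.48 for Atp1b1 (edgeR adjusted p = 0.0554), and the difference of Kcna7 went from -0.26 to -0.10 (edgeR adjusted p = 0.563).

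Between the PBMT groups 4 of the 7 passed with edgeR, all lower in fatigued mice, where 4051 of all genes passed (26.8%) and 1916 were lower (12.7%). Kcnj2 differed by -0.70 on the log2 scale (edgeR adjusted p = 0.00372), against -0.29 between the controls, where it did not pass (edgeR adjusted p = 0.252). A difference between these Kcnj2 values was not shown (edgeR adjusted p = 0.946). Atp1b1 differed by -0.65 (edgeR adjusted p = 0.00587). Scn4b differed by -0.22 (edgeR adjusted p = 0.0111), and all 6 fatigued PBMT mice lay below every sedentary PBMT mouse. For Kcna7 the difference was -0.42 (edgeR adjusted p = 0.0290). Kcna7 no longer passed when fatigued PBMT replicate 1, 4 or 5 or sedentary PBMT replicate 1 or 3 was left out, with edgeR adjusted p-values of 0.0757, 0.0548, 0.0710, 0.0622 and 0.0720 in that order. Kcnj11, Clcn1 and Scn4a did not pass, with log2 differences of -0.063, -0.091 and 0.13. With single mice left out, the value ran from -0.081 to -0.025 for Kcnj11, from -0.157 to -0.043 for Clcn1 and from 0.073 to 0.172 for Scn4a. Each of these comparisons is between the groups as sequenced, and state and project cannot be told apart. Cell markers differed along with them. Of all genes tested with edgeR, 18.6% passed between the controls, with 9.49% lower in fatigued mice. Between the PBMT groups 26.8% passed, with 12.7% lower in fatigued mice. With edgeR 4 of 10 fiber markers and 2 of 5 smooth muscle and pericyte markers were higher in fatigued controls. These lists did not move as a whole: Mb (-0.42, edgeR adjusted p = 0.0504, called lower with DESeq2), Myh2 (-0.44) and Rgs5 (-0.032) lay below 0 in controls, and the same 3 did between the PBMT groups. In fatigued PBMT mice 3 fiber markers, the same 2 smooth muscle and pericyte markers and all 4 macrophage markers were higher, the fiber list summing to 154050 ± 14034 CPM against 123220 ± 9075 CPM and the macrophage list to 37.1 ± 16.8 CPM against 17.5 ± 4.00 CPM (SD, n = 6 each). Ncam1, of the denervated fiber list, was higher in fatigued controls and in fatigued PBMT mice. Of the 5 genes of that list tested, 3 lay above 0 and 2 below in controls. In the PBMT groups 4 lay above 0 and 1 below. Between the PBMT groups Myog, Pecam1 and Cidec were also higher in fatigued mice and Krt10 lower, all named after their values were seen. The share of mitochondrially encoded genes differed along with the state too, as given above. The part of these cell types and of that share in the differences was not tested.

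Of the 62 further excitability genes tested over the 24 mice, 12 were higher and 2 lower in fatigued controls with edgeR (the same numbers with DESeq2), with a median log2 difference of 0.14 against -0.012 over all genes. The 14 called were 22.6% of the 62, near the 18.6% of all genes. The 2 lower were Clcn3, a chloride transporter gene, and Sgk1, a kinase that regulates channels and the pump, named after their values were seen. Between the PBMT groups 12 were higher and 5 lower with edgeR (14 and 5 with DESeq2), with Clcn3, Slc12a2, Sgk1 and Mbnl1 among the 5, likewise named after their values were seen. The 17 called were 27.4% of the 62, near the 26.8% of all genes, and the median was 0.039 against 0.0021 over all genes. By direction, calls in the 62 leaned more to higher than those of all genes. Of all genes called, 1434 of 2809 were lower in fatigued controls, and 1916 of 4051 between the PBMT groups. These splits were not tested. Neither pooled count is a result about the 62 genes. The lists within them differed: in controls and between the PBMT groups, 5 and 6 of 10 chloride channel and cotransporter genes were called, 4 and 3 of 7 anchors and regulators, 1 and 2 of 7 sodium channel genes, 2 and 3 of 13 sodium pump genes, and 2 and 3 of 25 potassium channel genes. These shares were not tested against one another. Atp1b2, the beta subunit that stood beside Atp1b1 in level per kilobase, went the other way from it: its mean was 221 ± 19.3 CPM in sedentary controls and 305 ± 56.7 CPM in fatigued controls (SD, n = 6 each), a log2 difference of 0.45 (edgeR adjusted p = 0.00249). Between the PBMT groups Atp1b2 differed by 0.36 (edgeR adjusted p = 0.00893).

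The 7 genes varied together to different degrees from mouse to mouse. As a description over 24 mice, after each group mean was subtracted from log2 CPM, the Pearson correlation was 0.795 for Clcn1 with Scn4a, 0.786 for Scn4a with Scn4b and 0.779 for Clcn1 with Scn4b (Spearman 0.703, 0.581 and 0.588), out of 21 pairs. Without the 2 mice farthest from the median of the first gene these were 0.721, 0.690 and 0.662. Within the 12 sedentary mice they were 0.671, 0.839 and 0.659, and within the 12 fatigued mice 0.950, 0.758 and 0.872. Without sedentary PBMT replicate 2, left out after its values were seen, the sedentary values were 0.503, 0.779 and 0.467. Kcnj11 and Kcna7 formed a further pair at 0.707 (Spearman 0.712), 0.662 without the farthest mice, 0.806 within the sedentary and 0.635 within the fatigued mice. Kcnj2 and Atp1b1 varied less with the others. The correlations of Kcnj2 ran from -0.343 (Scn4b; Spearman -0.210) to 0.256 (Atp1b1; Spearman 0.297), and those of Atp1b1 from -0.311 (Scn4a; Spearman -0.106) to 0.330 (Kcna7; Spearman 0.428).

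Single mice show parts of this pattern, and 1 goes against it. Sedentary control replicate 4 had the highest Scn4a (478 CPM) and Scn4b (656 CPM) of its group but the second lowest Clcn1 (135 CPM). Sedentary PBMT replicate 2 had the lowest Clcn1 (125 CPM), Scn4a (342 CPM) and Scn4b (521 CPM) of its group and the highest Atp1b1 (369 CPM). Fatigued control replicate 5 had the lowest Kcnj11, Clcn1, Scn4a and Scn4b of its group and the highest Kcnj2 (31.9 CPM). Fatigued PBMT replicate 5 had the lowest Kcna7, Clcn1, Scn4a, Scn4b and Atp1b1 of its group, with Kcnj2 at 40.7 CPM, second to replicate 6. For Atp1b1 the correlations with some of the other genes had unlike signs in the projects, which was not tested. With Scn4b its correlation over all mice was -0.202 (Spearman -0.178), and -0.330 without the 2 mice farthest from the median of Scn4b. It was -0.632 within the sedentary mice and 0.332 within the fatigued mice. With Scn4a it was -0.596 and 0.212, and with Clcn1 -0.601 and 0.326. Over all mice the Spearman correlation with Clcn1 was 0.070. The Pearson correlation was -0.053 without the 2 mice farthest from the median of Clcn1. Without sedentary PBMT replicate 2 the sedentary values were -0.425 with Scn4b, -0.375 with Scn4a and -0.072 with Clcn1, the last close to 0. The signs were the same with Kcnj2 (0.277 and 0.270) and Kcna7 (0.239 and 0.483), and with Kcnj11 the values were 0.031 and -0.116.

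Among the other 15107 genes tested over the 24 mice, the 3 most like Kcnj2 by the same measure were Rassf9 (Pearson 0.902), Mtmr7 (0.833) and Afap1l2 (0.828), with Spearman correlations of 0.890, 0.798 and 0.780. Without the farthest mice the Pearson correlations were 0.871, 0.778 and 0.768. Within the sedentary mice they were 0.918, 0.696 and 0.533, and within the fatigued mice 0.907, 0.946 and 0.950. Those most like Kcnj11 were Plpp7, Gpc1 and Cand2 (0.846, 0.832 and 0.826), and those most like Kcna7 were Gpc1, Fhod3 and Map2k1 (0.877, 0.860 and 0.856). Gpc1, which encodes a membrane proteoglycan, was on both lists. Clcn1 was most like March6, Epb41 and Ubap2 (0.904, 0.901 and 0.893). Scn4a was most like Sptb, the spectrin of the muscle membrane skeleton (0.954), Celsr2 (0.945) and Prrc2b (0.936). For Sptb the Spearman correlation was 0.913, and the Pearson correlation was 0.935 without the farthest mice, 0.984 within the sedentary and 0.914 within the fatigued mice. Scn4b was most like Atg13, Pik3c3 and Iars (0.870, 0.863 and 0.843), and Atp1b1 like Ugp2, Bcl2 and Tspan12 (0.851, 0.815 and 0.812). For Ugp2 these further values were 0.908, 0.886, 0.875 and 0.880 in the same order. Others held less well. Among the 21 relations the lowest Spearman correlation was 0.636 (Iars), the lowest Pearson correlation without the farthest mice 0.662 (Bcl2, and 0.678 for Tspan12), the lowest within the sedentary mice 0.533 (Afap1l2), and the lowest within the fatigued mice 0.626 (Tspan12, and 0.645 for Bcl2). These values describe the mice measured, and share the library and its total as well as the tissue.

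The 250 bases before the transcription start that RefSeq (GRCm38.p6) gives were read for 6 of the 7 genes and searched on both strands for 6 motifs, which were picked after the sequences were seen. Kcnj11 was not matched. The sequence of Kcnj2 is shown because the PBMT result turns on it, and that of Clcn1 because it is among the 3 genes that varied together. The Kcnj2 window (chr11:111065914-111066163, plus strand) held the palindromic E-box CACGTG 78 bases before the start, as did 6.02% of the 32851 promoters of that length, and it held 2 GC boxes (GGGCGG, in 32.7% of promoters). The Clcn1 window (chr6:42286435-42286684, plus strand) held a match to the MEF2 motif 41 bases before the start (2.92% of promoters) that overlaps a TATA box (TATAAA, 12.4%). Capitals mark the E-box in Kcnj2 and the MEF2 match with its TATA box in Clcn1.
Kcnj2: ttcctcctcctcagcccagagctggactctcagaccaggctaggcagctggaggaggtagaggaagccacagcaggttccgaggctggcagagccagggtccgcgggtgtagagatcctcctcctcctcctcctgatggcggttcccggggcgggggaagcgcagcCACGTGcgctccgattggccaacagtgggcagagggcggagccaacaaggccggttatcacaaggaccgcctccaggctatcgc
Clcn1: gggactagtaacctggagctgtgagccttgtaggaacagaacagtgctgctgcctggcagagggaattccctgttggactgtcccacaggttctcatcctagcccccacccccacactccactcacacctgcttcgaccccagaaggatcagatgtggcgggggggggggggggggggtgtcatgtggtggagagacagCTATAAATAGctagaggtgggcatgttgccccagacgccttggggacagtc
The Atp1b1 window held 2 GC boxes, and those of Kcna7, Scn4a and Scn4b held none of the 6 motifs. For these 3 the RefSeq start lies inside the gene span of GENCODE given above, so the windows lie in it, wholly for Kcna7 (chr7:45405710-45405959, plus strand) and Scn4a (chr11:106349391-106349640, minus strand) and in part for Scn4b (chr9:45138374-45138623, plus strand). Sequence outside these windows was not searched. The D-box (0.819% of promoters) and the CArG box (1.47%) were found in none of the 6 windows. A match is a description of the letters, and binding was not measured.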

How the data were processed

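RNA of TA muscle was measured in 24 mice, grouped by the sample labels. The authors deposited whole-number counts of reads per gene, without normalization. The submitters' processing notes name Trimmomatic, STAR 2.7.1a, Picard 2.20.4, StringTie 2.0.4, featureCounts 1.6.0, HTSeq and the build GRCm38. Which of the counting tools made the counts, whether reads or pairs were counted and the strand setting are not given in the sources used here. The kit was directional. Clcn1 overlaps Fam131b and Atp1b1 overlaps Nme7 on the opposite strand (median counts of 14 and 80), and reads from those overlaps are uncertain. Of the 55487 identifiers, 55227 matched GENCODE M21 (GRCm38), the source of symbols, coordinates and exon lengths. Each of the 276 pairs of libraries differed by more than sampling noise (lowest chi-square per gene 11.5), so none was taken as a duplicate.

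PBMT was compared with control within each project by two-sided quasi-likelihood tests with robust fits (edgeR 4.0.16 under R 4.3.3). Totals were scaled by TMM, genes were kept by filterByExpr at a minimum count of 10, and p-values were adjusted by the Benjamini-Hochberg method across every gene kept, with a threshold of 0.05. The difference of the effects and the comparisons between states used 1 fit of all 24 mice. CPM used totals normalized over the 24 mice, and log2 CPM a prior count of 2. Single genes were also tested by exact permutation (924 arrangements of 6 against 6). The edgeR fit was also run on simulated data, with an outcome that is not given here, and no result rests on that run. The alternatives were DESeq2 1.42.0, its size factors, limma voom 3.58.1 with quality weights, other count filters, all 24 mice in 1 fit, the replicate number as a block, length or GC trends removed (loess, span 0.3), and leaving out each mouse.

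Genes named are the 7 genes, the 3 genes most correlated with each, and, of 5 lists of other excitability genes (sodium channels, potassium channels, chloride channels and cotransporters, sodium pump, anchors and regulators), those with an unadjusted p under 0.05 in a PBMT comparison, the direct partners of the 7, and the most abundant gene of each list. Genes named outside this rule should be read as named after their values were seen, whether or not their sentence says so. Exceptions are Fam131b and Nme7, named for their overlap, and the most abundant gene of each marker list. Not every gene that meets this rule is shown, and the Schwann cell list was followed but its values are not given. Cell types were followed with 9 marker lists (muscle fiber, denervated fiber, Schwann cell, endothelium, smooth muscle and pericyte, erythrocyte, keratinocyte, adipocyte, macrophage). The members and lists were chosen with earlier results of these data known.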

Additional observations from a re-analysis of the deposited data

Results flagged for a closer look

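Of 28 groups of 6 mice (7 genes in 4 groups), 5 held a mouse that stood far from the other 5, where chance gives about 1 in 20 groups. Sedentary control replicate 4 was the highest of its group in Kcnj11 (160.87 CPM, others 122 to 136 CPM) and in Kcna7 (139.5 CPM, others 79.3 to 98.5 CPM). It is the library in which mitochondrially encoded genes held 3.24% of the counts. Sedentary PBMT replicate 2 was the lowest of its group in Clcn1 (124.78 CPM, others 159.6 to 169.6 CPM). Fatigued control replicate 5 was the lowest in Scn4a (375.43 CPM, others 467 to 517 CPM), and fatigued PBMT replicate 5 the lowest in Scn4b (427.46 CPM, others 494 to 519 CPM). What set these mice apart was not tested.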

How the results depend on the processing

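In sedentary muscle the number of genes called moved from 4 to 62 with DESeq2, 50 with limma voom, 16 without a filter, 12 with the length trend removed, 16 with the GC trend removed and 1 with all 24 mice in 1 fit. Of the 7 genes, 1 (Kcnj2) was called instead of 0 with DESeq2, limma voom, no filter, the length trend removed and the GC trend removed. Kcnj2 kept its direction in all 9 alternatives, and the cause of the changed calls was not tested. In fatigued muscle 2 genes were called with DESeq2, in the difference of the PBMT effects 3, and in the controls of both states 2 of the 7 with DESeq2 (Scn4b and Atp1b1). Small differences changed sign, with no call: Kcna7 in sedentary muscle (0.061 with limma voom, 0.024 with the GC trend removed) and Scn4a in fatigued muscle (0.00025 with 10 counts in every sample, 0.025 with limma voom).

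With the replicate number as a block, 11 genes were called in sedentary muscle, 1 of the 7 (Kcnj2) among them, and 1 gene in fatigued muscle. Correlations of mice with the same number ran from -0.071 to 0.066 in the sedentary and from -0.084 to 0.326 in the fatigued project. A mouse correlated best with its own number in 1 of 6 and 3 of 6 cases.

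Leaving out each mouse gave 2 to 20 called genes in sedentary muscle (2 without control replicate 1, 2 or 6, 18 without control replicate 4, and 10, 7 and 20 without PBMT replicates 2, 4 and 5), 0 to 1 of the 7, 1 to 3 genes for the difference of effects (3 without sedentary PBMT replicate 2) and 1 to 2 of the 7 between the controls. Log2 fold changes that changed sign ran from -0.12 to 0.072 for Kcna7 and -0.23 to 0.074 for Atp1b1 in sedentary muscle, from -0.068 to 0.0022 for Kcnj11, -0.072 to 0.025 for Clcn1, -0.055 to 0.040 for Scn4a and -0.050 to 0.015 for Scn4b in fatigued muscle, and from -0.0080 to 0.066 for Kcnj11 between the controls. Whether depth or the number of mice limited the calls was not tested.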
